A study of Mus musculus with 16 samples.

Results

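The genes described here are 10 markers of lymphocytes, 6 of cytotoxic cells (Gzma, Gzmb, Prf1, Nkg7, Ccl5, and Klrd1), 2 of the T cell receptor complex (Cd3e and Cd3g), and 2 of the B cell receptor (Cd79a and Cd79b), selected by name from a table of 24421 gene rows. They were chosen from earlier results of this same table. Their levels and fold changes are therefore given as a description, with no p-value. Calls of these genes, as defined below, rest on adjusted p-values from the same libraries and are part of that description. P-values are printed for other genes only. The lists of those genes were also chosen with earlier results known, so their p-values do not come from independent tests. Of the 10 genes, 8 passed the filter on low counts (more than 10 counts in at least 4 libraries), and Cd3e and Cd3g did not.

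Natural killer (NK) cells and cytotoxic T cells kill their targets by releasing granules. Perforin, the product of Prf1, opens the membrane of the target, and the granzymes, serine proteases encoded by Gzma and Gzmb, enter through it and trigger cell death. T cells recognize antigen with a receptor that signals through the CD3 chains, and B cells with surface immunoglobulin that signals through CD79A and CD79B. Lymphocytes are rare in the parenchyma of the healthy brain and occur mainly in the meninges, the choroid plexus, and the blood. CD11b, the integrin used here to collect cells, is carried by microglia, by other myeloid cells, and also by mature NK cells of the mouse, whereas most T and B cells lack it.

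RNA-Seq was conducted on CD11b+ brain cells, held back on magnetic beads after enzymatic dissociation, from female C57BL/6J mice (n = 4 for CON, 5 for MAL, 7 for MAL-BG). After weaning, CON mice ate a standard chow and MAL mice an isocaloric diet low in protein and fat for a month, and MAL-BG mice received the MAL diet with repeated gavages of E. coli and Bacteroidales bacteria. The other groups received gavages of buffer, and there was no group with bacteria on the standard chow, so bacteria were tested only on the MAL diet. The labels name cortical brain tissue and the Methods whole cerebra, the beads are an enrichment rather than a sort to purity, and the sources used here do not tie libraries to their batches.

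Libraries held 10312703 to 13461574 counts on genes in CON, 10864121 to 12819982 in MAL, and 14191791 to 18705202 in MAL-BG. Levels are given as CPM, counts relative to library sizes scaled by the TMM method. A gene was called when edgeR's adjusted p was under 0.05 and the absolute log2 fold change above 0.58. The summed level of 14 microglia markers was 19010 to 30780 CPM in CON, 19610 to 33300 CPM in MAL, and 40770 to 55690 CPM in MAL-BG, against 61.8 to 98.3, 66.0 to 82.5, and 151 to 288 CPM for the 10 lymphocyte genes. The sum of 10 choroid plexus markers exceeded that of the microglia markers in 5 of the 9 CON and MAL libraries. MAL-BG replicate 5 stood apart in 13 neutrophil markers, with 15030 CPM against 607 to 3498 CPM in the other MAL-BG libraries, and 12 of these 13 markers were called higher in MAL-BG than in CON.

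Gzma encodes granzyme A, a granule protease of NK and cytotoxic T cells. It lies on chromosome 13 (113093824 to 113100981, minus strand, GRCm38.p6). Its level in the 4 CON libraries was 25.0, 19.9, 27.7, and 19.7 CPM. The 5 MAL libraries held 19.2, 21.4, 21.0, 15.9, and 15.1 CPM, and the 7 MAL-BG libraries ranged from 46.4 to 129 CPM around a median of 102. Every MAL-BG library thus lay above all 9 others. MAL-BG was 4.13-fold higher than CON (log2 fold change 2.04, SE 0.280) and 5.14-fold higher than MAL (2.36, SE 0.261), the largest differences among these 8 tested genes in both comparisons. MAL-BG libraries fell apart into 5 with 91.1 to 129 CPM and replicates 5 and 6 with 48.1 and 46.4 CPM. Without replicate 5 the log2 fold change over CON was 2.14, and without replicate 6 it was 2.16.

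Gzmb encodes granzyme B, the protease that cleaves caspases in the target cell, and lies on chromosome 14 (56258836 to 56262334, minus strand). Its level was 8.06, 4.27, 8.43, and 3.86 CPM in CON and 6.47, 5.52, 7.31, 4.19, and 4.46 CPM in MAL. In MAL-BG it ranged from 6.20 to 13.8 CPM (median 8.09), so the groups overlapped. The log2 fold change was 0.50 (SE 0.276) over CON and 0.64 (SE 0.258) over MAL, and neither was called. The call against MAL sat near the threshold, and Gzmb was called there in 9 other settings, which were RLE scaling (0.67), DESeq2 (0.67), the compared groups alone (0.64), thinned libraries (0.70), and the fits without CON replicate 1 or 4, MAL replicate 3, or MAL-BG replicate 2 or 3 (0.64 to 0.77).

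Both granzymes come from granules of the same cell types, but the balance between their transcripts differed among libraries. The ratio of Gzma to Gzmb counts, which no scaling of libraries can alter, was 3.10 to 5.10 in CON (median 3.96), 2.87 to 3.88 in MAL (median 3.39), and 4.88 to 20.6 in MAL-BG (median 11.3). MAL-BG replicate 6, with the lowest ratio of its group, fell within the range of CON. The ratio of Gzma to Prf1 counts had a median of 9.21 in MAL-BG, against 4.30 (CON) and 3.65 (MAL), and its MAL-BG range of 3.45 to 18.1 overlapped those of CON and MAL.

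Prf1 encodes perforin and lies on chromosome 10 (61297751 to 61304684, plus strand). CON libraries held 6.68, 3.99, 7.17, and 4.16 CPM, MAL libraries 5.87, 4.92, 6.37, 2.02, and 4.14 CPM, and MAL-BG libraries 5.64 to 16.5 CPM with a median of 11.1. MAL-BG replicates 3 and 7 fell within the range of CON. The level in MAL-BG was 1.94-fold that of CON (log2 fold change 0.95, SE 0.330) and 2.29-fold that of MAL (1.19, SE 0.309). Prf1 was called in both comparisons, but the call against CON was lost without CON replicate 2 (0.83), without CON replicate 4 (0.84), and with library totals only (0.83).

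Nkg7 encodes a membrane protein of cytotoxic granules and lies on chromosome 7 (43437138 to 43438246, plus strand). Its level was 7.53, 4.92, 10.1, and 4.01 CPM in CON, 6.73, 4.55, 7.31, 4.92, and 5.18 CPM in MAL, and 13.3 to 29.6 CPM in MAL-BG (median 23.6). All 7 MAL-BG libraries exceeded the other 9. The log2 fold change was 1.82 (SE 0.272) over CON and 2.03 (SE 0.252) over MAL, second to Gzma in each. Without MAL-BG replicate 5, which held 29.6 CPM, it was 1.73 and 1.95.

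These 4 granule genes differed in how far MAL-BG lay above CON, from a log2 fold change of 0.50 (Gzmb) to 2.04 (Gzma). To show the sequence ahead of them, the bases upstream of their RefSeq starts (GRCm38.p6) are printed below in the direction of transcription. RefSeq promoters were matched for 7 of the 10 genes. Capitals mark the letters of 3 short motifs of factors active in lymphocytes, GGTGTG (T-box), TGTGGT (RUNX), and GGAAGT (ETS), searched on both strands, with the reverse complement in capitals where the match is on the other strand. Bases that lie in an exon of another annotation (GENCODE vM21) were left out, 65 for Nkg7 and 3 for Prf1, and the GENCODE start of Gzmb lies 74 bases further downstream.
Gzma, chr13:113100982-113101231, minus strand: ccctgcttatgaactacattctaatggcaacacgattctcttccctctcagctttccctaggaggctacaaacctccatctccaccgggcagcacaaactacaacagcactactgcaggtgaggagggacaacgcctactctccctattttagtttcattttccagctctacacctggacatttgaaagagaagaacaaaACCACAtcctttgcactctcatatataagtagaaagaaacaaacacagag
Gzmb, chr14:56262335-56262584, minus strand: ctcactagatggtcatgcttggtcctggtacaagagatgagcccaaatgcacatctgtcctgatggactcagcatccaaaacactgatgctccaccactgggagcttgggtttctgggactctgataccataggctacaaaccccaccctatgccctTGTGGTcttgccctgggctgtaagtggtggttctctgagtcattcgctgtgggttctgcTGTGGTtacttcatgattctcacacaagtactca
Prf1, chr10:61297586-61297832, plus strand: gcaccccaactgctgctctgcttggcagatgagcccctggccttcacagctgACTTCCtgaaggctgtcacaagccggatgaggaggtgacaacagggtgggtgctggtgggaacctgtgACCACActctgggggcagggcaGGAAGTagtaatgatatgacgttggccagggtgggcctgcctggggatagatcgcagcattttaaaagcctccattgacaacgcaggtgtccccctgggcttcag
Nkg7, chr7:43436888-43437072, plus strand: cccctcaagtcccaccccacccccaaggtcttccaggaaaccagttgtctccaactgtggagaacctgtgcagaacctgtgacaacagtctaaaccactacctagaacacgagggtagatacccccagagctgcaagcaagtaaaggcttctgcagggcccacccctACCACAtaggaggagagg
In the 250 bases before the start, the RUNX letters stood 50 bases ahead of Gzma, 93 and 34 ahead of Gzmb, 130 ahead of Prf1, and 83 ahead of Nkg7. They occur in 14.0% of 32851 promoter windows of this length. The ETS letters (19.7% of windows) stood 198 and 108 bases ahead of Prf1. The T-box letters (16.3%) stood 13 bases ahead of the RefSeq start of Nkg7, in the stretch not printed. These are matches of letters, and no binding was measured.

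Ccl5 encodes a chemokine that attracts T cells, NK cells, and monocytes, and that activated microglia and macrophages make as well as lymphocytes. It lies on chromosome 11 (83525778 to 83530518, minus strand). Its level was 21.3, 13.6, 19.6, and 11.96 CPM in CON, 8.68, 13.2, 15.7, 14.6, and 12.02 CPM in MAL, and 22.3 to 47.6 CPM in MAL-BG (median 31.3). All MAL-BG libraries lay above the 9 others, the lowest of them close to the highest CON library, while CON and MAL overlapped. MAL-BG was 1.92-fold higher than CON (log2 fold change 0.94, SE 0.216) and 2.49-fold higher than MAL (1.31, SE 0.204).

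Klrd1 encodes CD94, the chain that pairs with NKG2 receptors on NK cells and on some CD8 T cells. It lies on chromosome 6 (129588092 to 129598775, plus strand). CON libraries held 7.83, 5.66, 7.65, and 6.28 CPM, MAL libraries 8.002, 6.71, 8.35, 8.70, and 5.73 CPM, and MAL-BG libraries 8.44 to 16.6 CPM (median 14.0). Of the MAL-BG libraries, replicate 6 alone fell below the highest MAL library. The log2 fold change was 0.96 (SE 0.203) over CON and 0.84 (SE 0.187) over MAL.

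**Figure D1:**
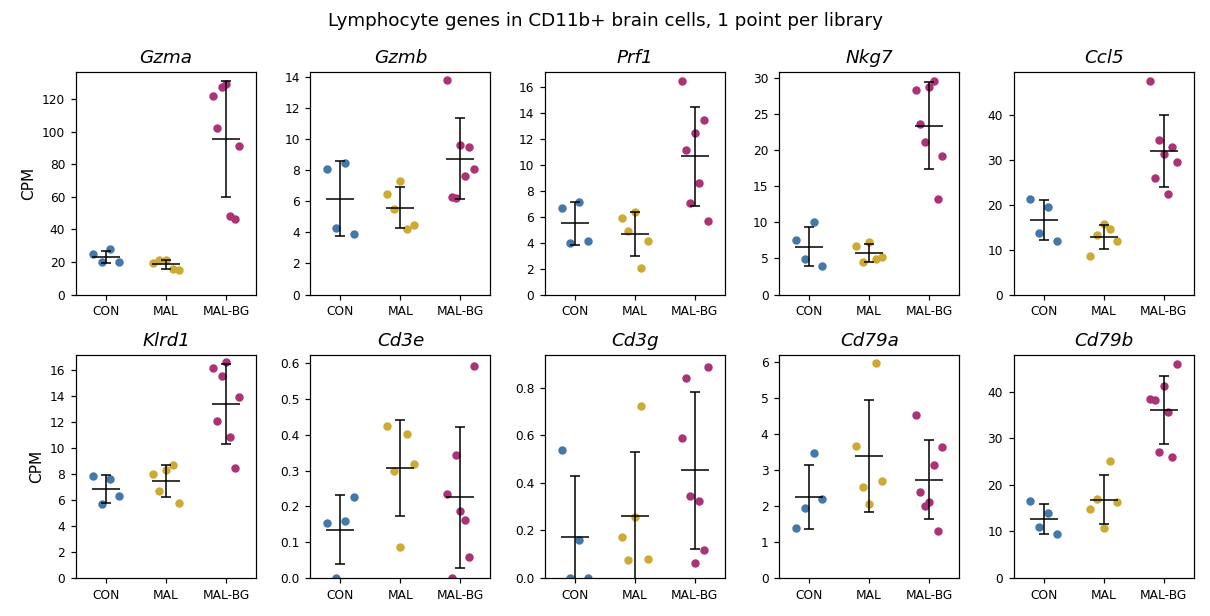
Level of each of the 10 genes in every library, in CPM on linear axes that start at 0, for CON (n = 4), MAL (n = 5), and MAL-BG (n = 7). Points are libraries, and the black lines give the mean ± SD (cut off at 0 for Cd3g). MAL-BG points lie above all others for Gzma, Nkg7, Ccl5, and Cd79b, whereas the groups overlap for Cd79a, Cd3e, and Cd3g.

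Cd3e and Cd3g transcripts were at the limit of detection. Cd3e, the epsilon chain without which the receptor is not assembled at the surface, lies on chromosome 9 (44998735 to 45009663, minus strand). It had 2, 0, 2, and 3 counts in the CON libraries, 5, 4, 1, 5, and 4 in the MAL libraries, and 0 to 8 in the MAL-BG libraries (median 3), or 7, 19, and 24 counts in all. Cd3g, the gamma chain, lies close to it (44969572 to 44980431) and had 7, 0, 2, and 0 counts in CON, 2, 1, 3, 9, and 1 in MAL, and 1 to 12 in MAL-BG (median 6). Over the libraries of a group, Cd3g summed to 9, 16, and 47 counts. These counts are too few for a fold change, and no difference between groups was detectable at this depth. Part of an exon of Cd3e overlaps a gene on the other strand, and the strand setting used in counting is not stated.

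The CD79 chains, which carry the signal of the B cell receptor, differed from each other. Cd79a (chromosome 7, 24897497 to 24901858, plus strand) was low, with 1.38, 1.95, 3.47, and 2.20 CPM in CON, 3.66, 2.54, 2.07, 5.96, and 2.71 CPM in MAL, and 1.31 to 4.54 CPM in MAL-BG (median 2.38). All groups overlapped, and the log2 fold change was 0.28 (SE 0.374) over CON and -0.31 (SE 0.340) over MAL. Cd79b (chromosome 11, 106311341 to 106314562, minus strand) was at 16.6, 10.9, 14.0, and 9.39 CPM in CON, 14.8, 16.9, 10.7, 25.1, and 16.2 CPM in MAL, and 26.1 to 46.1 CPM in MAL-BG (median 38.2). The MAL-BG libraries all exceeded the rest, by 1.51 (SE 0.228) over CON and 1.11 (SE 0.206) over MAL on the log2 scale. The proteins form a heterodimer, yet the ratio of Cd79b to Cd79a counts had a median of 13.6 in MAL-BG, against 4.93 (CON) and 5.17 (MAL). Its MAL-BG range of 8.45 to 20 lay above all MAL libraries (4.05 to 6.68) and overlapped CON, where replicate 1 had 12 on 18 counts of Cd79a.

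**Figure D2:**
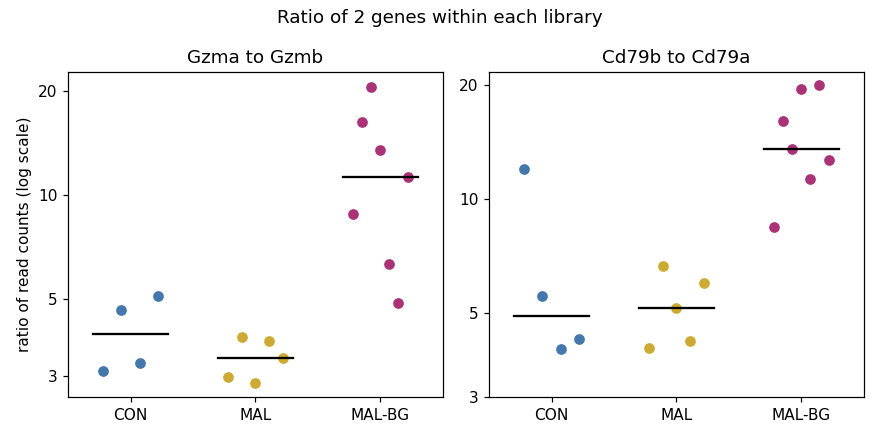
Ratio of the read counts of 2 genes within each library, on a log axis, for Gzma to Gzmb and for Cd79b to Cd79a in CON (n = 4), MAL (n = 5), and MAL-BG (n = 7). Points are libraries and lines medians; the MAL-BG medians of 11.3 and 13.6 lie above those of CON (3.96 and 4.93) and MAL (3.39 and 5.17), with overlap of MAL-BG and CON in both ratios.

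Levels of different genes were compared after division by exon length (the union of exons in GENCODE vM21). Gzma had the highest level in each group, at 22.9 ± 3.92 CPM per kb in CON (SD, n = 4), 18.4 ± 2.88 in MAL (n = 5), and 94.7 ± 35.4 in MAL-BG (n = 7). In MAL-BG it was followed by Ccl5 (33.3 ± 8.38), Nkg7 (25.6 ± 6.56), Cd79b (25.3 ± 5.08), Klrd1 (10.5 ± 2.39), Gzmb (6.08 ± 1.82), Prf1 (4.13 ± 1.48), Cd79a (1.87 ± 0.759), Cd3g (0.139 ± 0.101), and Cd3e (0.0554 ± 0.0484). Ranges of neighbours in this order overlapped except between Cd79b and Klrd1 and between Cd79a and Cd3g. In CON, Ccl5 and Cd79b, and Cd79a and Cd3g, were the neighbours without overlap, and in MAL it was Prf1 and Cd3g.

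Set against the whole table, 6 of the 8 tested genes were called higher in MAL-BG than in CON (Gzma, Nkg7, Cd79b, Klrd1, Prf1, and Ccl5), where 11.4% of 14565 genes were called higher and 21.7% lower. The same 6 were called higher than in MAL, where 10.2% of genes were called higher and 20.2% lower. The median log2 fold change of the 8 was 0.96 over CON and 1.15 over MAL, and that of all genes -0.04 and -0.03. All 7 MAL-BG libraries exceeded the 9 others for 4 of the 8 (Gzma, Nkg7, Ccl5, and Cd79b) and for 6.17% of all genes tested. They lay below the 9 others for none of the 8 and for 6.36% of all genes tested. Without MAL-BG replicate 5 the calls again numbered 6 in each comparison. The genes were chosen with these comparisons known, and both comparisons use the same MAL-BG libraries, so nothing further is read from these counts.

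Microglia markers moved in the same direction as the lymphocyte genes. Of the 14 markers, 9 were called higher in MAL-BG in each comparison, with a median log2 fold change of 0.81 over CON and 0.82 over MAL. Klrd1, Prf1, and Ccl5 had 0.94 to 0.96 over CON. Choroid plexus markers moved the other way, with all 10 called lower than in CON, 9 of 10 lower than in MAL, and summed levels of 10780 to 41580 CPM in CON, 5019 to 32740 CPM in MAL, and 1480 to 13250 CPM in MAL-BG. Of all genes, 21.7% were called lower and 11.4% higher than in CON, and 20.2% lower and 10.2% higher than in MAL. Of the markers of other cells, 5 of 12 for monocytes were lower than in CON and 3 of 10 for endothelium higher. Against MAL, 7 of 12 for monocytes were lower and 5 of 10 for endothelium higher. There, 5 of 10 for dendritic cells were lower and 1 higher, and 3 of 5 for mast cells and basophils were higher. Their part in the levels of the lymphocyte genes was not tested. In bulk samples of this kind, more cells of a type and more RNA per cell cannot be told apart.

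When libraries were instead scaled so that the microglia markers had equal mean levels (a setting chosen after seeing the data), the median of all genes shifted to -0.88 over CON and -0.79 over MAL. On this scale, Gzma (1.25, SE 0.329), Nkg7 (1.04, SE 0.295), and Cd79b (0.70) were still called higher than in CON, where 0.433% of genes were called higher and 63.9% lower. Prf1 (0.12), Ccl5 (0.14), Klrd1 (0.16), Gzmb (-0.31), and Cd79a (-0.60) were not called. Over MAL, Gzma (1.60) and Nkg7 (1.26) were called higher and Cd79a (-1.01) lower, where 0.522% of genes were called higher and 58.5% lower, and Ccl5 (0.52), Cd79b (0.39), and Prf1 (0.34) were not called. With it, none of the 8 genes had all MAL-BG libraries above the rest, which 0.0618% of genes had.

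**Figure D3:**
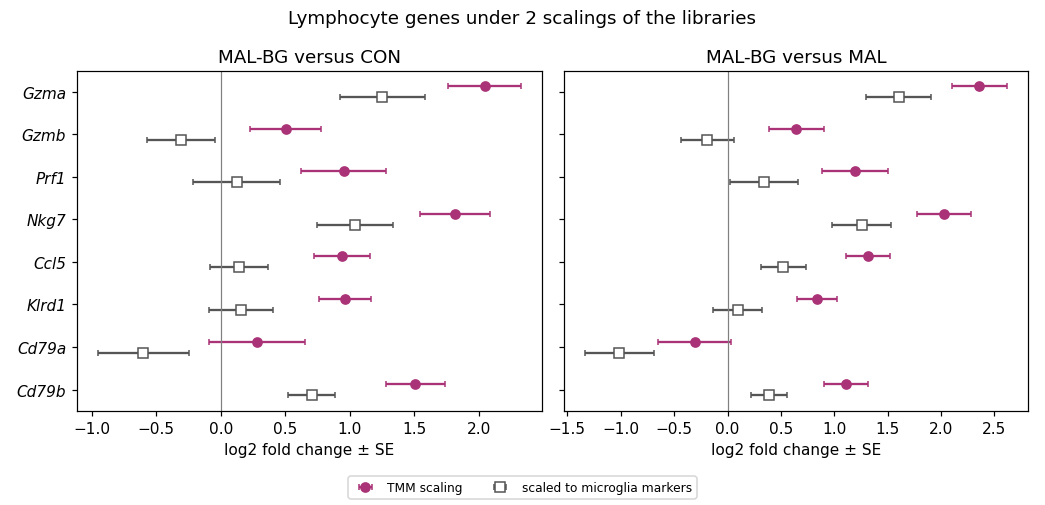
Log2 fold change ± SE of the 8 tested genes in MAL-BG versus CON (left) and versus MAL (right). Filled circles use TMM scaling and open squares scaling to the microglia markers; every gene moves left under the latter, Gzma and Nkg7 stay above 1 in both panels, and Gzmb goes below 0.

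Malnutrition without bacteria gave no call among these genes. In MAL versus CON, edgeR called 0 of 14565 genes (0%) and DESeq2 called 0, with 212 and 241 genes at an unadjusted p under 0.05. For the 8 genes the log2 fold change ran from -0.37 (Ccl5, SE 0.226) to 0.59 (Cd79a, SE 0.400). Gzma was at -0.32 (SE 0.279), Nkg7 at -0.21 (SE 0.277), and Cd79b at 0.40 (SE 0.234).

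Other lymphocyte genes, which are not among the 10, were tested next. As their lists were chosen with earlier results of these data known, the adjusted p-values do not come from independent tests. Of 111 listed genes of NK, T, and B cells, 100 had a row in the table and 78 were tested with edgeR, with p-values adjusted over all genes by the Benjamini-Hochberg method. Against CON, 20 were called higher and 5 lower, and against MAL 25 higher and 8 lower. Those called higher were 25.6% and 32.1% of the 78, where 11.4% and 10.2% of all genes were called higher. The numbers called lower were below the 21.7% and 20.2% of all genes. But with scaling to the microglia markers the counts were 1 higher and 23 lower against CON and 2 higher and 23 lower against MAL. That scaling moves all genes down alike, so its counts are read against the 63.9% and 58.5% of all genes called lower with it, and the median of the 78 genes (-0.32 in both comparisons) lay above the all-gene medians of -0.88 and -0.79. Without MAL-BG replicate 5, the library high in neutrophil markers, 21 were higher and 4 lower against CON, and 25 higher and 8 lower against MAL. The constant and variable genes of the T cell receptor and immunoglobulins were not analysed here.

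Among 27 tested genes of NK cells and cytotoxicity, 11 rose over CON and 14 over MAL, with 2 lower than in MAL. Those that rose were 40.7% and 51.9% of the list, where 11.4% and 10.2% of all genes were called higher. The number lower than in MAL was below the 20.2% of all genes. Their median log2 fold change was 0.60 over CON and 0.88 over MAL, and -0.20 and 0.09 when scaled to the microglia markers (all genes -0.88 and -0.79). The largest rises over CON belonged to NK receptors. Klra3, an inhibitory Ly49 receptor for MHC class I, rose from 0.706 to 2.47 CPM (log2 fold change 1.78, SE 0.49, adjusted p = 0.0079), although the Klra genes are close paralogs whose reads may have been divided between them. Klrc1, the NKG2A chain that pairs with CD94, rose from 0.934 to 2.82 CPM (1.58, adjusted p = 0.012). Klre1, a lectin-like receptor of NK cells, rose by 1.57 (adjusted p = 0.00099) and Klrb1c, which encodes NK1.1, by 1.496 (from 4.29 to 12.2 CPM, adjusted p = 0.003). These 4 were also called over MAL, and all 4 kept both calls when any 1 library was left out. With scaling to the microglia markers they were not called against CON (adjusted p of 0.068 to 0.098), whereas Klrb1c (0.95) and Klre1 (0.82) stayed called against MAL.

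The other 7 genes of this list called over CON, Ccl3 among them, rose by 0.80 to 1.48. Cd244, the receptor 2B4, had 12.7, 18.6, and 8.27 CPM in the CON, MAL, and MAL-BG groups and fell below MAL by 1.17 on the log2 scale (adjusted p = 0.001), and S1pr5, which guides NK cells out of tissues, fell below MAL by 0.82 (adjusted p = 0.009). Neither passed against CON. Serpinb9, the inhibitor that shields cytotoxic cells from granzyme B, had 28.4, 24.8, and 31.3 CPM and did not pass in either comparison. Ccl3 and Ccl4, chemokines that microglia make in quantity, were far above the other genes of this list, at 241 and 306 CPM in CON and 419 and 440 CPM in MAL-BG. Ccl3 rose over CON (0.80, adjusted p = 0.028) and MAL (1.06), but was not called against CON without CON replicate 2, 3, or 4 (adjusted p up to 0.0753) and was at -0.048 against CON when scaled to the microglia markers. Ccl4 was called against MAL (0.89, adjusted p = 0.041) and not against CON (0.53), and leaving out any of 9 of the 16 libraries ended that call.

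Of 24 tested T cell genes, 6 rose and 4 fell against CON, and 9 rose and 4 fell against MAL. Those that rose were 25% and 37.5% of the list, where 11.4% and 10.2% of all genes were called higher. As 21.7% and 20.2% of all genes were called lower, the numbers that fell were below the share over all genes. The medians were 0.50 and 0.43, and -0.33 and -0.22 when scaled to the microglia markers, where the medians of all genes were -0.88 and -0.79. Ptprcap, a partner of CD45 in T, B, and NK cells, rose from 2.22 to 7.05 CPM (log2 fold change 1.67, adjusted p = 0.00031) and was called against CON with scaling to the microglia markers too (0.85, adjusted p = 0.041). Txk, a kinase of T and NK cells, rose by 1.36 (adjusted p = 0.0059). Skap1 (1.76, adjusted p = 0.028) and Lat (1.42, adjusted p = 0.035), both adaptors of T cell receptor signaling, were called against CON and not against MAL, and each call was lost without CON replicate 2 (adjusted p = 0.0864 and 0.101). Skap1 was also lost without CON replicate 3 or MAL-BG replicate 1, and Lat without CON replicate 3, CON replicate 4, or MAL-BG replicate 4.

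The T cell genes that fell included Bcl11b, the transcription factor that keeps T cell identity, from 4.001 CPM in CON to 0.942 CPM in MAL-BG (-2.09, adjusted p = 0.0025), and Ccr7, the homing receptor of naive T cells and migrating dendritic cells, from 6.05 to 1.94 CPM (-1.64, adjusted p = 0.00094). Il2ra (-1.39, adjusted p = 0.020) and Thy1 (-0.98, adjusted p = 0.038), which neurons also express, fell as well. From which cells the transcripts of these genes came was not tested. The call of Il2ra against CON was lost without CON replicate 4 (adjusted p = 0.122). Thy1 lost its call without any of 6 libraries against CON (adjusted p up to 0.158) and without any of 12 against MAL, and Bcl11b against MAL without MAL replicate 3 or 5 (adjusted p up to 0.0856). The most abundant T cell genes, Lef1 (22.7, 20.7, and 36.7 CPM), Il7r (19.6, 20.9, and 27.9 CPM), and Tcf7 (7.94, 6.99, and 7.24 CPM in CON, MAL, and MAL-BG), did not pass. Of the defining T cell genes, Cd3d was at 0.154, 0.260, and 0.542 CPM and Cd8a at 0.0762, 0.491, and 0.318 CPM, below the filter like Cd3e and Cd3g. Other T cell surface genes passed it, and some are named here after their values were seen. Cd4 (-0.51 over CON and -0.47 over MAL), Cd28 (-0.33 and 0.38), Cd7 (0.30 and 0.36), and Icos (0.30 and 0.19) were called in neither comparison. The 3 that follow were picked because they were called higher, whereas the surface genes Ccr7, Il2ra, and Thy1 fell, as given above. Cd2, an adhesion receptor of T and NK cells, rose from 1.86 to 3.82 CPM over CON (1.03, adjusted p = 0.020) and by 1.33 over MAL (adjusted p = 0.0031), but was not called against CON without CON replicate 2 or 4 (adjusted p up to 0.0595). Cd247, the zeta chain of the T cell receptor complex, which NK receptors also use, had 1.15, 1.09, and 2.04 CPM and rose over MAL (0.91, adjusted p = 0.030), but did not pass against CON (0.82, adjusted p = 0.063). Its call was lost without any of 4 libraries, MAL replicates 1, 2, and 3 and MAL-BG replicate 1 (adjusted p up to 0.0833). Cd5, a T cell inhibitory receptor, was called over MAL (1.14, adjusted p = 0.044), and leaving out any of 10 libraries ended that call (adjusted p up to 0.111). None of the calls of Cd2, Cd247, and Cd5 held when scaled to the microglia markers.

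Of 27 tested B cell genes, 3 rose and 1 fell against CON, and 2 rose and 2 fell against MAL, with a median log2 fold change of 0.19 over CON and -0.21 over MAL, and of -0.65 and -1.01 when scaled to the microglia markers (all genes -0.88 and -0.79). With that scaling 11 and 14 were called, all lower, beside 63.9% and 58.5% of all genes. With TMM scaling, 11.4% of all genes were called higher than in CON and 10.2% higher than in MAL, so the counts of B cell genes called higher were near or below the share over all genes. Tnfrsf17, the BCMA receptor of plasma cells, rose from 10.4 to 24.2 CPM over CON (1.21, adjusted p = 0.0027) and by 0.997 over MAL (adjusted p = 0.0056). Ly6d (1.19, adjusted p = 0.020), a surface marker of early B cells, was called against CON and not without CON replicate 1 (adjusted p = 0.0514). Bank1, a B cell adaptor, passed against CON at 0.60, close to the fold change threshold, fell under it without CON replicate 2 (0.53) and was at -0.23 when scaled to the microglia markers. Ebf1, a transcription factor of B cells that mural cells also express, rose over MAL (1.40, adjusted p = 0.016) and did not pass against CON (1.05, adjusted p = 0.077).

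Ms4a1, which encodes CD20, had 1.46, 1.79, and 0.857 CPM and did not pass. Ms4a1 is named here after its values were seen. Btla, an inhibitory receptor of B and T cells, fell from 4.51 CPM in CON and 5.54 in MAL to 2.04 in MAL-BG (-1.14, adjusted p = 0.014, and -1.44, adjusted p = 0.0024), but not without CON replicate 2 against CON (adjusted p = 0.111). The most abundant genes of this list, Cd37 (255, 251, and 364 CPM) and Blnk (147, 154, and 215 CPM), are also expressed by myeloid cells, and neither was called.

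**Figure D4:**
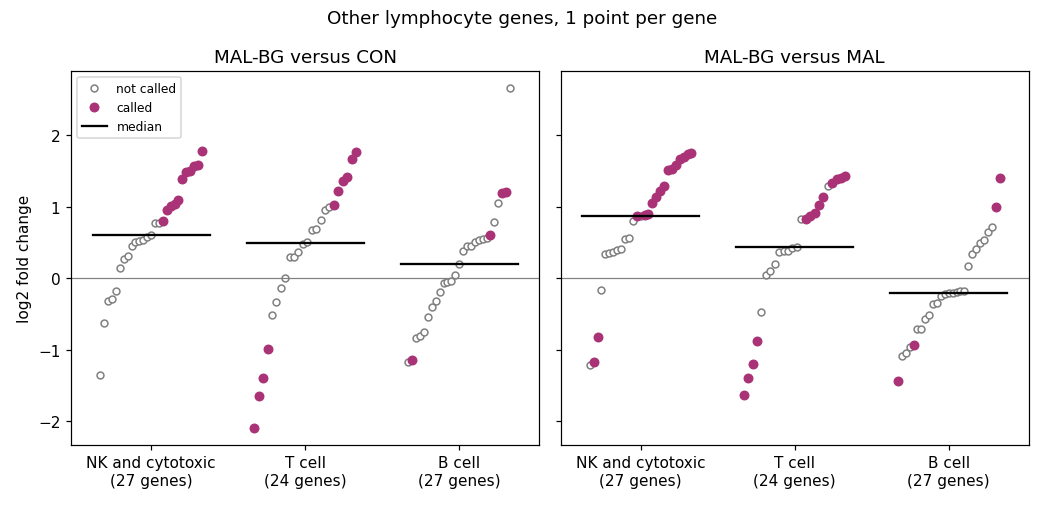
Log2 fold change of the tested lymphocyte genes outside the 10, 1 point per gene sorted within its list, in MAL-BG versus CON (left) and versus MAL (right). Filled points were called and black lines are medians, which are 0.60, 0.50, and 0.19 for the NK, T, and B cell lists on the left and -0.20, -0.33, and -0.65 when scaled to the microglia markers (not drawn), where the median of all genes is -0.88.

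Genes that act with the 10 were taken from 3 further lists. Of 13 tested genes of granule maturation and release, 1 rose and 1 fell in each comparison. The gene that rose was 7.69% of the list, where 11.4% and 10.2% of all genes were called higher than in CON and MAL. As 21.7% and 20.2% of all genes were called lower, both counts lay below the share over all genes. Lamp1, a lysosomal membrane protein that marks degranulation and is abundant in all phagocytes, rose from 773 to 1412 CPM over CON (0.87, adjusted p = 0.00016), and was at 0.04 when scaled to the microglia markers. Lyst, which controls the size of lysosomes and granules, fell from 41.96 to 12.4 CPM (-1.75, adjusted p = 0.00058). The most abundant others, Ctsc (235 and 309 CPM in CON and MAL-BG), the protease that activates granzymes, and Ap3d1 (200 and 201 CPM), did not pass.

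Of 24 tested lymphocyte chemokines, receptors, and adhesion molecules, 1 rose and 5 fell against CON, and 2 rose and 6 fell against MAL, where 21.7% and 20.2% of all genes were called lower, so the number that fell was near the share over all genes. Icam1, the ligand of the integrin LFA-1, fell from 610 CPM in CON and 485 CPM in MAL to 143 CPM in MAL-BG (-2.09, adjusted p = 1.4e-05, and -1.76, adjusted p = 4e-05). Itga4, a subunit of the integrin VLA-4 by which lymphocytes enter the brain, fell by 1.01 against CON (adjusted p = 0.00038), and Cxcl10, an interferon-induced attractant of T and NK cells, fell by 1.09 against CON (adjusted p = 0.007).

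Of 34 tested genes of antigen receptor signaling, 7 rose and 3 fell against CON, and 5 rose and 6 fell against MAL. Those that rose were 20.6% and 14.7% of the list, where 11.4% and 10.2% of all genes were called higher. As 21.7% and 20.2% of all genes were called lower, the numbers that fell were near or below the share over all genes. Lck, the kinase that phosphorylates the CD3 chains, rose from 3.55 to 8.28 CPM (1.22, adjusted p = 0.0023), and Lat2, an adaptor of B, NK, and myeloid cells, from 99.7 to 248 CPM (1.31, adjusted p = 0.0019). Vav1, an exchange factor found in all blood cells, rose by 0.83 over CON (adjusted p = 0.0041) and by 0.66 over MAL, where it was at -0.0634 when scaled to the microglia markers. Rasgrp1 (-1.86, adjusted p = 2.6e-05), Prkcq (-1.43, adjusted p = 0.0013), and Plcg1 (-1.33, adjusted p = 0.0011), which act below the T cell receptor, fell against CON. Their mean levels in CON were 11.3, 30.1, and 101 CPM, where Cd3e had 0.135 CPM and Cd3d 0.154 CPM. From which cells these transcripts came was not tested, so no fall of signaling in T cells is read from them. Malt1 fell against MAL (-0.60, adjusted p = 0.0023), but was not called without any of 7 libraries. Tyrobp (604, 574, and 612 CPM) and Fcer1g (469, 470, and 572 CPM), adaptors of NK and myeloid receptors, did not pass.

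The genes were also compared by their pattern over the 16 libraries, which share the difference between groups, so that these correlations are a description without a test. Spearman's rho between cytotoxic genes ranged from 0.58 (Gzmb and Klrd1) to 0.89 (Gzma and Ccl5). Cd79b followed Klrd1 (0.84) more closely than Cd79a (0.22), and Cd79a followed none of the cytotoxic genes (-0.17 to 0.19). Among all tested genes, the nearest to Prf1 were Il2rb (0.891), Klrb1c (0.885), and Tbx21 (0.865), and the nearest to Gzmb were Klrb1a (0.856), Prf1 (0.83), and Klri2 (0.826). Ccl5 was nearest to Ncr1 (0.935), Slc3a2 (0.897), and Klrb1c (0.894), and Nkg7 to Aimp2 (0.926), Fbxl17 (0.912), and Ctsw (0.900). Gzma was nearest to Jam3 (0.959), Lsm14b (0.956), and Klra9 (0.924). The nearest to Klrd1 were Tmem69 (0.962), Siah1a, and Soat1 (both 0.956), those to Cd79b Tmem101 (0.985), Fam212a, and Sft2d1 (both 0.971), and those to Cd79a F630028O10Rik (0.885), Gpx1 (0.826), and Emp3 (0.821). NK genes thus stood among the nearest 3 of Gzma, Gzmb, Prf1, Nkg7, and Ccl5, and among those of Klrd1 and the CD79 genes there were none.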

How the data were processed

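CD11b+ brain cells were sequenced in 16 libraries, 1 per mouse (7 MAL-BG, 5 MAL, 4 CON); where separate origin is not in the labels, p-values measure only the spread between libraries. The authors prepared strand-specific poly(A) libraries, aligned read pairs to GRCm38 with STAR, and deposited raw HTSeq counts per gene. The submitters' processing notes name HTSeq 2.5, whereas the paper's Methods give another version. The counting mode, strand option, and annotation are not given in the sources used here. Groups were read from column names, whose running numbers match no sample title. Libraries of a group differed by more than counting noise (smallest chi-square per degree of freedom 9.8).

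Genes were kept at over 10 counts in 4 or more libraries, which left 14565. They were tested in R 4.3.3 with edgeR 4.0.16 (quasi-likelihood, TMM scaling, all 3 groups in 1 fit). The study's code fitted batch and condition. The columns could not be tied to sample titles, which carry a letter A or B that the labels do not explain, so no batch term was fitted and a part of batch in the differences was not tested. The fit was tested on simulated data. Depth sets the precision of low counts, and the spread between libraries that of the rest. The 10 genes and all lists were chosen with earlier results of these data known.

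Named are the 10 genes; from each lymphocyte and pathway list the 4 largest rises and 4 largest falls over CON among called genes and the 3 genes of highest mean CPM; from other marker lists genes of highest mean CPM; and for each tested gene the 3 nearest by Spearman's rho over log2 CPM (prior count 2). Alternatives were other scalings (RLE, upper quartile, library totals, microglia markers), other filters, DESeq2 1.42.0, the compared groups alone, thinned libraries, no fold change threshold, and each library left out. Immunoglobulin and T cell receptor constant genes were not analysed here, and some genes that the naming rule selects are not reported here.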

Additional observations from a re-analysis of the deposited data

Results flagged for a closer look

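In 39 groups of libraries (each of the 10 genes and the 3 lymphocyte lists in CON, MAL, and MAL-BG), 1 library lay far from the others of its group by Dixon's criterion, which chance meets in about 1 group in 20. Cd3g was at 0.725 CPM (9 counts) in MAL replicate 4, and the next highest MAL library was at 0.258 CPM. The same library held the highest levels of Cd79a (5.96 CPM) and Cd79b (25.1 CPM) in MAL and the lowest level of Prf1 (2.02 CPM).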

How the results depend on the processing

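Under the other scalings, filters, and tests listed for the processing, apart from the scaling to microglia markers, and with each library left out, the calls of Gzma, Nkg7, Ccl5, Klrd1, and Cd79b held in both MAL-BG comparisons, while the calls of Prf1 against CON and Gzmb against MAL changed as given above. Leaving out each library in turn gave 4081 to 5456 called genes for MAL-BG versus CON and 3854 to 4932 for MAL-BG versus MAL, 5 to 6 and 6 to 7 of the 8 tested members, 18 to 31 and 26 to 37 of the other lymphocyte genes, and 0 throughout for MAL versus CON. Scaling to the microglia markers, chosen after seeing the data, gave 9367 called genes against CON and 8597 against MAL (4820 and 4423 with TMM) and 3 called members in each comparison instead of 6. As it moves all genes down alike, to a median of -0.88 against CON and -0.79 against MAL, genes with small rises change sign by construction, which were Ccl3 (-0.048) and Bank1 (-0.23) against CON and Vav1 against MAL (-0.0634). Of the other named genes called in a comparison, 30 calls held under this scaling and 28 were lost. The only rises among the held calls were Ptprcap against CON and Klre1 and Klrb1c against MAL. All other held calls were falls, which this scaling moves further down and so cannot undo, and all lost calls were rises. With library totals only, the median of all genes shifted to -0.17 against CON and -0.16 against MAL, and the share of called genes that were higher fell from 34.4% to 22.4% and from 33.4% to 20.1%; for the other lymphocyte genes it fell from 80.0% to 69.2% against CON. No paired analysis was possible because the running numbers of the columns match no sample title and no source says that a number is shared across groups. Cd3e and Cd3g could not be fitted at this depth except without the filter, where neither was called.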
